A study of Mus musculus with 22 samples.

Results

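Large Pro-B cells are the large, cKIT+ cells among the CD93+ IgM- B lineage precursors of bone marrow, in which the immunoglobulin heavy chain locus is being rearranged. All libraries labelled large Pro-B were taken, 9 of the 22 in the series, and they comprise 5 from tet-LIN28B mice and 4 from littermate controls, each from a separate mouse. Their table lists 37669 genes, of which 1185 were at 0 in every library, and the 13776 genes that reached a normalized count of 10 in 4 or more libraries were tested. A normalized count is a gene's read count divided by 1 size factor per library.

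The tet-LIN28B mice carried 1 copy each of Col1a tetO-LIN28B, a doxycycline-responsive cDNA of Flag-tagged human LIN28B, and of Rosa26 rtTA*m2, the doxycycline-dependent activator that drives it. The controls were littermates heterozygous for Rosa26 rtTA*m2, and thus carried the activator without the LIN28B cDNA. Mice of both genotypes were adult, of either sex, and received chow with doxycycline at 200 mg/kg for 10 days, so that drug and activator were shared by the groups. The activator stands at the Rosa26 locus, which is active in most cell types, so that induction was not limited to B cells. Cells bearing CD3, TER119 or GR1 were depleted before the sort, and small cells by forward scatter were left out of the Pro-B gate. Poly-A RNA of the sorted cells was amplified as full-length cDNA and sequenced to 13.9 to 23.3 M reads on genes per library.

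LIN28B is an RNA-binding protein that early-life progenitors express. It inhibits the biogenesis of let-7 microRNAs, and it also binds many mRNAs directly. The let-7 microRNAs rise as tissues mature and lower the level and translation of mRNAs that carry matches to their seed in the 3′ UTR. LIN28B is high in fetal B lymphopoiesis and low in that of the adult, and its return in adult progenitors is known to favour fetal-like output such as B-1a cells. ARID3A, a DNA-binding protein of early B cells, is one of the let-7 targets linked to that output.

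The mature let-7 microRNAs of the mouse share 1 seed, bases 2 to 8, which is in capitals in the RefSeq sequences (GRCm38.p6) below. They are shown because the targets described next are defined by it. The members let-7a, let-7d and miR-98 stand for the family and differ outside the seed. The microRNAs themselves were not analysed here.
mmu-let-7a-5p: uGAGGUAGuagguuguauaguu
mmu-let-7d-5p: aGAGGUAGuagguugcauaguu
mmu-miR-98-5p: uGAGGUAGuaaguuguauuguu

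A seed match is the letters CTACCTC, or CTACCTCA for the match of 8 bases, on the sense strand of the longest annotated 3′ UTR of a gene (GENCODE, GRCm38). Of 11749 tested genes with such a UTR, 1296 (11.03%) held at least 1. A match is a description of the sequence, not a shown binding site. Sites of some let-7 targets described below follow, with the match in capitals and each printed 5′ to 3′ on the strand of its gene. These genes were picked among the targets that hold a match. Arid3a holds 1 of 8 bases (chr10:79953898-79953921, plus strand) and 1 of 7 (chr10:79954725-79954747). Igf2bp3 (chr6:49086783-49086806, minus strand) holds 1 of 8. Hmga1 (chr17:27563280-27563302, plus strand) and Arid3b (chr9:57790358-57790380, minus strand) hold 1 of 7 each. Mouse Lin28b holds 4, of which the match of 8 bases is shown (chr10:45381018-45381041, minus strand).
Arid3a site 1: gcaagtttctttCTACCTCAggtc
Arid3a site 2: aaaaactgttttCTACCTCtggt
Igf2bp3: atttttactcaaCTACCTCAggta
Hmga1: tctgttcacaaaCTACCTCtgga
Arid3b: ttcaataaagctCTACCTCttca
Lin28b: cgggcgggaagtCTACCTCAtgca

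The libraries did not separate by genotype. Between libraries the correlation of log2 values across genes had a median of 0.897 (0.853 to 0.963) within a genotype and 0.914 (0.849 to 0.961) between genotypes. The highest correlation was that of tet-LIN28B replicates 3 and 5. Libraries listed 17931 to 31881 genes above 0 in tet-LIN28B and 19090 to 26954 in control. Reads of Y-linked genes were present in tet-LIN28B replicates 3, 4 and 5 and in control replicates 2, 3 and 4, while tet-LIN28B replicates 1 and 2 and control replicate 1 had Xist at 1853 to 2126. No source used here ties a library to a sequencer or run, and batches of that kind were not examined.

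The libraries carried the marks of Pro-B cells in both genotypes. Dntt, the polymerase that adds N nucleotides at heavy chain joints, ranged between 25387 and 33185 normalized counts in tet-LIN28B and between 18277 and 56991 in control. Of 15 Pro-B markers, 13 had a positive log2 fold change, with a median of 0.08 against 0.02 over all genes tested, and none passed the test. Several defining markers of other lineages were near 0, but not all. Cd3d, a chain of the T cell receptor complex, reached at most 3.84 in tet-LIN28B and 2.30 in control, and S100a8, of neutrophils, at most 7.53 in tet-LIN28B and 3.86 in control. Klrb1c, of NK cells, reached 120 in tet-LIN28B and 93.1 in control, and Jchain, of plasma cells, 278 and 142. Elane, of neutrophils, reached 29.3 in tet-LIN28B and 156 in control. Ighd, of mature B cells, was at 222 to 552.5 in tet-LIN28B and 203 to 530 in control. Of the myeloid markers, Lyz2, lysozyme, was at 674 to 1070 in tet-LIN28B and 499 to 2695 in control, and Mpo, myeloperoxidase, at 50.2 to 635 in tet-LIN28B and 87.7 to 1684 in control.

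The comparison asked which genes LIN28B changes at this stage. By limma on log2(normalized count + 1), with Benjamini-Hochberg adjustment over all genes tested, 0 of 13776 genes (0%) were higher and 0 (0%) lower in tet-LIN28B large Pro-B cells at an adjusted p under 0.05. At an unadjusted limma p under 0.05 there were 394 genes (2.86%), 248 higher (1.8%) and 146 lower (1.06%). The 2.86% is below the share that this threshold lets through by chance, but the count moved with the setting. It was 247 of 12956 genes without tet-LIN28B replicate 3 and 1284 of 13527 without tet-LIN28B replicate 4. Limma with array weights gave 1779 of 13776, and the fit over the 6 groups of the series gave 1005 of 11830. The count test edgeR, run on the whole reads recovered from the normalized counts, also called 0 genes (0%), with 363 (2.64%) at an unadjusted p under 0.05. DESeq2 on the same reads called 4 of 18005 genes higher (0.0222%), namely Lin28b, Arid3a, Per3 and Sfmbt2, and 0 lower (0%), while 3.73% of the 36335 genes with a DESeq2 p were at an unadjusted p under 0.05. Without any test, 179 genes (1.3%) had libraries that did not overlap between genotypes. By chance alone, the 126 possible splits into 5 and 4 would give such genes at no lower a share. Non-overlap of a gene is thus a description of its values. Limma called 0 genes in the 6 libraries with reads of Y-linked genes alone (645 at an unadjusted p under 0.05) and 0 with those reads as a covariate (501). As these are bulk samples, fewer cells of a type and less RNA per cell cannot be told apart in any of the values that follow.

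**Figure D1:**
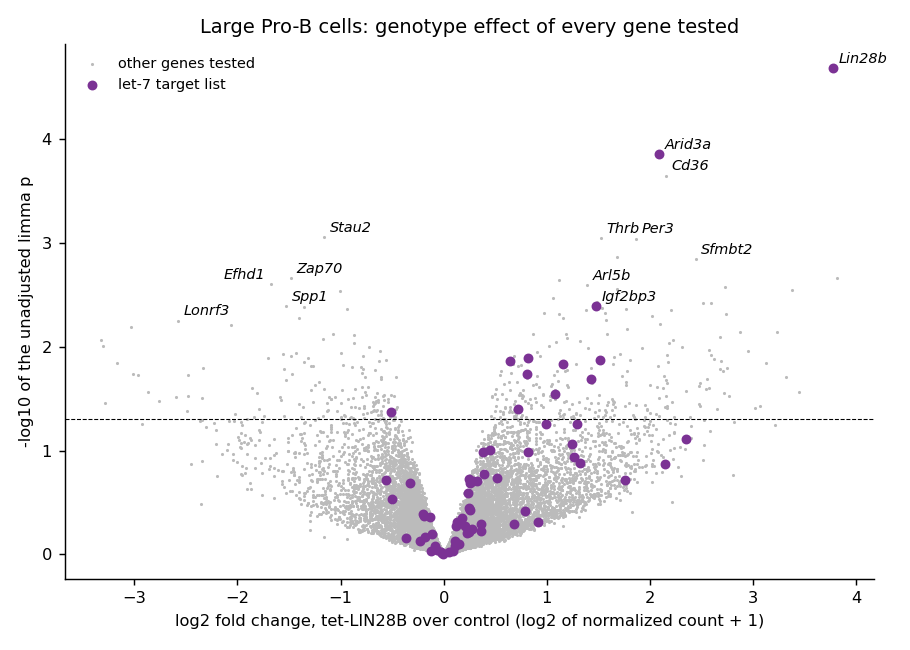
Every gene tested in large Pro-B cells, by its log2 fold change, tet-LIN28B over control (x axis, from log2 of normalized count + 1), and by the -log10 of its unadjusted limma p (y axis). Large points are the 65 tested genes of the let-7 target list, and the dashed line marks an unadjusted limma p of 0.05. Lin28b and Arid3a stand highest, most of the let-7 targets lie right of 0, and no gene passed after adjustment.

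Lin28b checks the labels. It had 57.0, 73.3, 232, 86.0 and 151 normalized counts in tet-LIN28B replicates 1 to 5, against 10.2, 4.63, 6.15 and 6.90 in control replicates 1 to 4 (values are given in this order throughout). The lowest tet-LIN28B library was thus far above the highest control library, and among tet-LIN28B mice the level spread widely. The mean was 119.8 ± 72.1 (SD, n = 5) in tet-LIN28B and 6.96 ± 2.34 (SD, n = 4) in control, a log2 fold change of 3.78 ± 0.56 (SE, limma adjusted p = 0.29, DESeq2 adjusted p = 2.55e-09). The values are those of the mouse gene (chromosome 10, 45376617 to 45486314), whereas the transgene is a human cDNA, and how many reads come from either was not tested.

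Arid3a (chromosome 10, 79927043 to 79955018) was the gene with the second smallest limma p. It had 861, 694, 494, 269 and 474 normalized counts in tet-LIN28B, against 195, 117, 88.4 and 107 in control. The genotypes did not overlap, and every tet-LIN28B library was above 195. The log2 fold change was 2.09 ± 0.38 (SE, limma adjusted p = 0.974, DESeq2 adjusted p = 0.000615), and the exact two-sided permutation test over the 9 libraries gave p = 0.0159, where the smallest possible is 0.00794. Over 24 alternative settings the log2 fold change ranged between 1.91 and 2.33. The order of Arid3a among tet-LIN28B libraries was not that of Lin28b, since replicate 1 had the highest Arid3a and the lowest Lin28b.

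Igf2bp3, an oncofetal RNA-binding protein that is part of the LIN28B and let-7 circuit in fetal B cells, had 306, 293, 566, 559 and 633 normalized counts in tet-LIN28B, against 134, 280, 224 and 78.2 in control. Again no library overlapped, though tet-LIN28B replicate 2 and control replicate 2 were close. The log2 fold change was 1.48 ± 0.42 (SE, limma adjusted p = 0.999, exact permutation p = 0.00794). The related Igf2bp1 and Igf2bp2 averaged 18.6 and 18.4 normalized counts in tet-LIN28B, against 8.16 and 7.83 in control, with overlapping libraries and differences within their SE. The sign for Igf2bp1 turned with the setting, at -0.12 by limma and 1.16 by DESeq2. Hmga1, an architectural chromatin protein, had 7095, 7182, 5744, 9404 and 5422 in tet-LIN28B, against 3462, 3724, 5107 and 5523 in control, so that only tet-LIN28B replicate 5 lay below the highest control library. Its log2 fold change was 0.65 ± 0.22 (SE, limma adjusted p = 0.999). Arid3b, the paralog of Arid3a, had 435, 279, 486, 168 and 423 in tet-LIN28B, against 133, 85.6, 197 and 223 in control. The spread overlapped through tet-LIN28B replicate 4, and the log2 fold change was 1.16 ± 0.40 (SE, limma adjusted p = 0.999). Hmga2, another classical target, stood at 3.90, 0, 11.5, 20.1 and 35.1 in tet-LIN28B, against 0, 0, 2.31 and 11.5 in control, levels too low to separate.

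**Figure D2:**
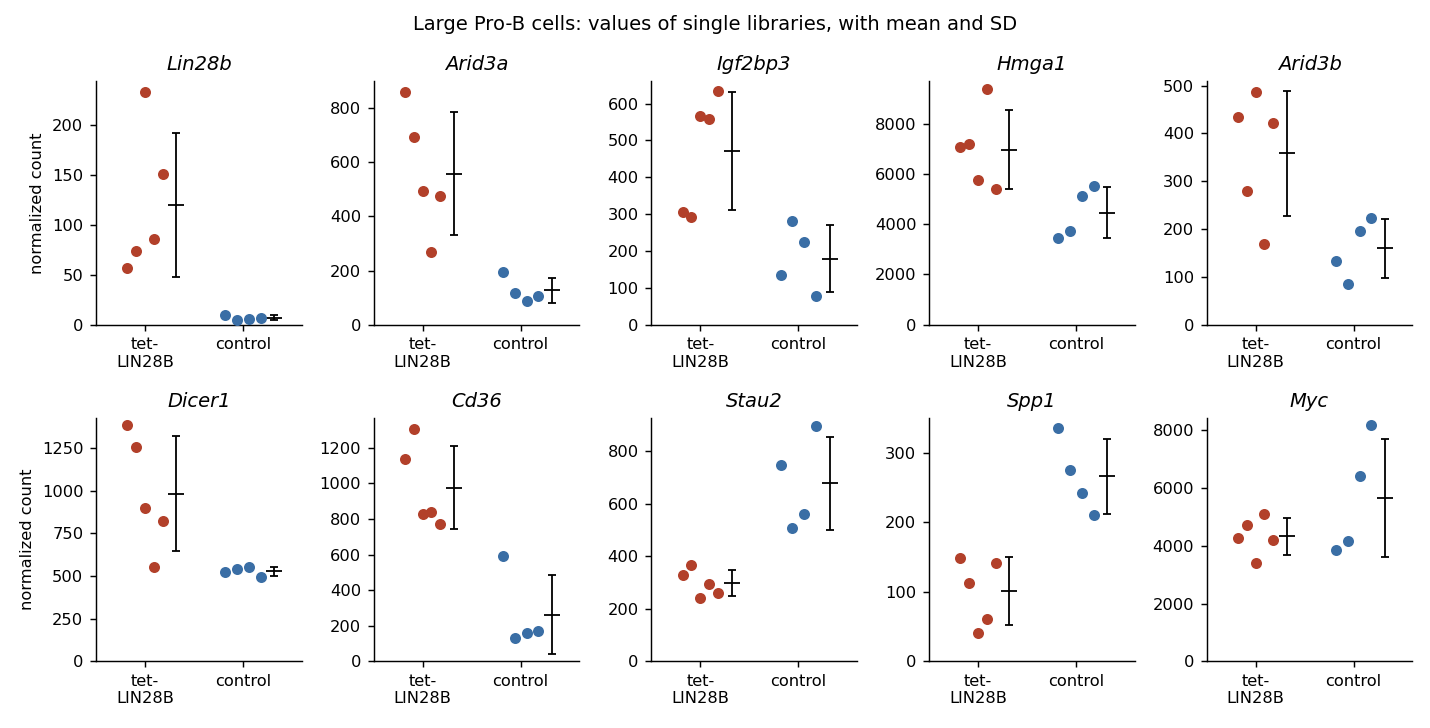
Normalized counts (y axes, from 0) of 10 genes in the single large Pro-B libraries, tet-LIN28B (n = 5) left of control (n = 4) in each panel. Points are libraries in replicate order, and the bars beside them give mean and SD. Lin28b, Arid3a, Igf2bp3 and Cd36 do not overlap between genotypes with tet-LIN28B above control, Stau2 and Spp1 do not overlap with tet-LIN28B below control, and Myc overlaps.

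The list of let-7 targets was compiled from general knowledge, with earlier results of these data known. It held 76 genes, of which 65 passed the filter. Of these 48 (73.8%) had a positive log2 fold change, against 52.2% of all genes tested. The median was 0.26, or 0.25 without Lin28b, against 0.02 over all genes. Of the 65, 11 were higher and 1 lower at an unadjusted p under 0.05 (1.8% and 1.06% of all genes tested were). Of them 5 had all tet-LIN28B libraries above all controls (0.697% of all genes tested did), against 0 with all below (0.602%). Lin28b, the induced gene, is among the 11 and the 5. Of the 64 others 47 were positive, 10 higher and 1 lower at an unadjusted p under 0.05. None passed after adjustment by limma. Beside the genes above, the members at an unadjusted p under 0.05 were Dicer1, Fndc3a, Mdm4, Galc, Plagl2 and Slc5a6 on the higher side. Galc, the lysosomal galactosylceramidase, had 60.9, 53.5, 89.2, 41.2 and 80.3 normalized counts in tet-LIN28B, against 36.1, 37.0, 20.8 and 9.20 in control, with no overlap. Mdm4, a p53 inhibitor, had 1455, 1509, 1794, 837 and 1431 in tet-LIN28B, against 1076, 877, 829 and 466 in control, and overlapped only through tet-LIN28B replicate 4. The member on the lower side was Ccnd2, cyclin D2, with 4151, 5799, 4018, 3611 and 4587 in tet-LIN28B, against 4769, 5486, 6446 and 8917 in control (log2 fold change -0.51 ± 0.22 SE, limma adjusted p = 0.999).

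The median of the let-7 target list within single libraries, each gene centred on its mean over libraries, was 0.178, 0.180, 0.131, 0.0407 and 0.222 (log2) in tet-LIN28B, against -0.279, -0.128, -0.0803 and -0.0994 in control. All 5 tet-LIN28B libraries were above all 4 controls on this measure. Replicate 4, the tet-LIN28B library with the lowest Arid3a, was also the lowest of them here.

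The seed matches were then counted over all genes, without regard to any list. The 1296 genes with at least 1 match had a median log2 fold change of 0.13 and 62.7% were positive, against -0.01 and 48.6% for the 10453 genes with 0 matches. At an unadjusted p under 0.05, 47 genes with a match were higher and 3 lower, against 154 higher and 139 lower without one. The median was 0.12 for the 1127 genes with 1 match, 0.21 for the 169 with 2 or more, and 0.17 for the 448 with a match of 8 bases. Of the 65 let-7 targets, 48 held a match, with a median of 0.31 (0.29 for the 47 without Lin28b), and the 17 without one had a median of 0.11. The 1248 genes with a match that are not on the list had a median of 0.12.

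UTR length moved with these values. Genes with a match had a median UTR of 2446.5 bases, and those without one 1107 bases. Among the longest UTRs, above the 75th percentile of length, the median log2 fold change was 0.21 for 668 genes with a match and 0.23 for 133 with 2 or more, against 0.14 for 2266 genes with none. The gap between genes with and without a match was thus smaller among long UTRs than over all genes, and the part of UTR length in it was not tested further.

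By library, the median of the genes with a match minus that of the genes with none was 0.110, 0.0205, 0.155, -0.0536 and 0.153 (log2) in tet-LIN28B, against -0.0466, -0.0465, -0.100 and -0.0908 in control. The mean was 0.0769 ± 0.0910 (SD, n = 5) in tet-LIN28B and -0.0710 ± 0.0285 (SD, n = 4) in control. Replicate 4 was the only tet-LIN28B library among the control values. The difference of 0.14 between genotypes became 0.0615 when tet-LIN28B replicates 3 and 5 and control replicate 4 were left out.

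**Figure D3:**
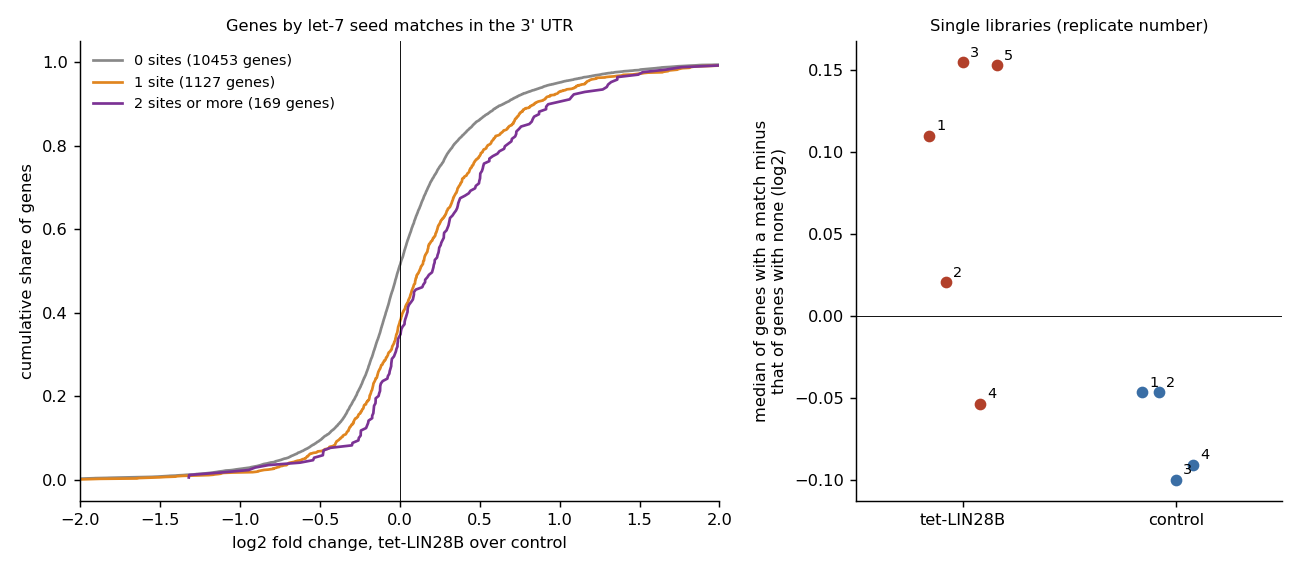
Left, cumulative share of genes (y axis) by log2 fold change, tet-LIN28B over control (x axis), for genes with 0, 1 and 2 or more let-7 seed matches in the 3′ UTR (10453, 1127 and 169 genes). Right, the median of genes with a match minus that of genes with none in each library (y axis, log2), numbered by replicate. The curves of genes with matches lie right of that of genes with none, and tet-LIN28B replicate 4 lies among the controls.

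The genes of the microRNA machinery had mostly positive values. Of 19 tested members 15 had a positive log2 fold change (52.2% of all genes tested did), with a median of 0.30. At an unadjusted p under 0.05, 3 were higher and 0 lower (1.8% and 1.06% of all genes tested were). The 3 were Dicer1, Tarbp2 and Tut4. The centred median was 0.594, 0.468, 0.229, -0.498 and 0.346 (log2) in tet-LIN28B, against 0.195, 0.0411, -0.364 and -0.551 in control. The genotypes overlapped, replicate 4 was the lowest of each, and the list's median was 0.47 without tet-LIN28B replicate 4 and 0.12 without control replicate 4. Dicer1, the ribonuclease that cuts microRNA precursors and is itself a let-7 target, had 1383, 1257, 900, 553 and 820 normalized counts in tet-LIN28B, against 525, 542, 554 and 494 in control. Control libraries were tight, and 4 of 5 tet-LIN28B libraries were above them. Its log2 fold change was 0.82 ± 0.28 (SE, limma adjusted p = 0.999, exact permutation p = 0.0238). The longest annotated UTR of Dicer1 holds no match to the seed. Tarbp2, the double-stranded RNA-binding partner of DICER1, had 2018, 1676, 1712, 2295 and 2379 in tet-LIN28B, against 1393, 1558, 1452 and 1372 in control, with no overlap (log2 fold change 0.47 ± 0.19 SE, limma adjusted p = 0.999). Tut4, a terminal uridylyl transferase, averaged 1173 in tet-LIN28B and 717 in control.

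Among the fetal B and B-1 lineage genes, 9 of 15 tested were positive, with a median of 0.27. At an unadjusted p under 0.05 were 3 (2.86% of all genes tested were), Lin28b, Arid3a and Igf2bp3, so that the list adds no further gene. The median was -0.13 for the 10 members left by a filter at 50. Dntt, which is low in fetal B lymphopoiesis, had 32341, 33185, 30242, 25387 and 27409 normalized counts in tet-LIN28B, against 56991, 55918, 33632 and 18277 in control. The control libraries spanned the tet-LIN28B ones on both sides (log2 fold change -0.34 ± 0.31 SE, limma adjusted p = 0.999). Cd5, a surface marker of B-1a cells, was low in both genotypes, at 10.0 to 80.5 in tet-LIN28B and 0 to 48.6 in control.

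Beyond the let-7 targets, the gene with the third smallest limma p was Cd36, a scavenger receptor that takes up long-chain fatty acids. It had 1137, 1305, 827, 841 and 771 normalized counts in tet-LIN28B, against 593, 130, 158 and 169 in control. The libraries did not overlap, and control replicate 1 stood apart from the other controls. The log2 fold change was 2.16 ± 0.41 (SE, limma adjusted p = 0.999, exact permutation p = 0.00794), and without control replicate 1 it was 2.65 (limma adjusted p = 0.0181), the single call made when any 1 library was left out. The next genes were picked by smallest p among those with tet-LIN28B above control in every library, so that non-overlap is how they were chosen. Thrb, the thyroid hormone receptor beta, had 998, 1050, 1061, 691 and 606 in tet-LIN28B, against 425, 208, 183 and 489 in control. Per3, a circadian clock repressor, had 82.7, 108, 214, 109.8 and 87.8 in tet-LIN28B, against 32.8, 23.1, 28.5 and 39.1 in control (log2 fold change 1.86 ± 0.42 SE, DESeq2 adjusted p = 0.00712). Sfmbt2, a polycomb group protein, had 78.8, 44.5, 169.7, 146 and 166 in tet-LIN28B, against 33.9, 7.72, 31.5 and 14.9 in control (log2 fold change 2.45 ± 0.59 SE, DESeq2 adjusted p = 0.0358). Arl5b, an ARF-like GTPase, Cmah, the sialic acid hydroxylase, and Zc3hav1l, a zinc finger protein, were picked likewise. Their log2 fold changes were 1.39, 1.68 and 1.06. Gadd45b, a stress-induced growth arrest gene named from another list, did not overlap either, with a log2 fold change of 1.12.

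On the lower side, Stau2, a double-stranded RNA-binding protein of mRNA transport, had the smallest limma p. It had 328, 368, 243, 295 and 262 normalized counts in tet-LIN28B, against 748, 508, 562 and 894 in control. All tet-LIN28B libraries were below all controls, and the log2 fold change was -1.16 ± 0.26 (SE, limma adjusted p = 0.999, DESeq2 adjusted p = 0.0625). In the fit over all 6 groups of the series, which estimates the spread from 22 libraries with the mouse as a random block, Stau2 (limma adjusted p = 0.0453), Lin28b (0.00195) and Arid3a (0.00633) were the 3 genes called. Efhd1, a mitochondrial calcium-binding protein, had 140.4, 133, 67.1, 129 and 45.2 in tet-LIN28B, against 539, 308, 238 and 215 in control. Spp1, osteopontin, a secreted adhesion protein, had 149, 113, 41.2, 60.4 and 142 in tet-LIN28B, against 335, 275, 242 and 210.4 in control. Stau2, Efhd1 and Spp1, the last also on the panel, met the same rule on this side. So did Rnase4, Rgs3, Gimap3, Slc46a3, Lonrf3 and Crip2, with log2 fold changes between -2.58 and -0.87. That no library of these genes overlapped is thus how they were chosen.

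Zap70 and Lat, a kinase and an adaptor best known from T cell receptor signalling, were among the lower genes. Zap70 had 159.9, 135, 65.2, 103 and 117 normalized counts in tet-LIN28B, against 198, 260.0, 507 and 362 in control. Lat had 175, 256, 219, 386 and 345 in tet-LIN28B, against 272, 502, 1040.5 and 1357 in control, and overlapped through control replicate 1. Both are on the list of T cell markers, of which 5 of 16 genes passed the filter and 0 were positive, with a median log2 fold change of -1.32. Of the 5, 3 were lower at an unadjusted p under 0.05 (1.06% of all genes tested were). Without the filter the median of all 16 was 0.03. Summed, the markers on that list ranged between 2298 and 3810 in tet-LIN28B and between 3129 and 4472 in control, mostly from Lck. The defining genes were low in both genotypes. Cd3e was at most 19.2 in tet-LIN28B and 28.7 in control, and Cd3g at most 32.6 in tet-LIN28B and 10.3 in control. Trac was at most 53.1 in tet-LIN28B and 13.6 in control. Tcf7, a T cell transcription factor, had 79.6, 77.4, 48.9, 32.9 and 8.78 in tet-LIN28B, against 64.4, 200, 152 and 105 in control. It overlapped through tet-LIN28B replicates 1 and 2. The part of other cells in these values was not tested.

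Markers of neutrophils and monocytes were mixed. Of 9 tested, 2 were positive (52.2% of all genes tested were). At an unadjusted p under 0.05, 1 was higher and 1 lower (1.8% and 1.06% of all genes tested were). The median log2 fold change was -0.68. Leaving out tet-LIN28B replicate 1 made it -0.20, leaving out control replicate 2 made it -0.44, and DESeq2 gave 0.00. Their sum ranged between 1304 and 1647 in tet-LIN28B and between 1419 and 5051 in control. The centred median was -0.743, -0.615, 0.456, 0.266 and 0.0918 (log2) in tet-LIN28B, against -0.0901, 2.34, -0.216 and 1.20 in control, so that control replicates 2 and 4 were high and the other controls lay within the tet-LIN28B range. Prtn3, a protease of early granulocytes, had 10.9, 0, 8.63, 0 and 2.51 in tet-LIN28B, against 6.78, 89.5, 14.6 and 40.2 in control. Itgam, an integrin of myeloid cells, ran the other way, with 278, 217, 129, 107 and 64.0 in tet-LIN28B, against 139, 101, 2.31 and 3.45 in control (log2 fold change 2.72 ± 1.09 SE, limma adjusted p = 0.999). Of the erythroid markers 4 of 12 were tested and 2 were positive, with a median of -0.18. Car2, carbonic anhydrase 2, was the member at an unadjusted p under 0.05 and had 3173, 3528, 1627, 1494 and 2960 in tet-LIN28B, against 4842, 3843, 4737 and 3382 in control. Haemoglobin genes were near 0, with Hba-a1 at most 7.67 in tet-LIN28B and 1.13 in control.

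Most genes of the Pro-B programme overlapped between genotypes. In the lists of early B transcription factors, the pre-B cell receptor and IL-7 signalling, the libraries of 2 genes did not overlap, Nfil3 and Ptpn6. These lists hold 42, 28 and 30 tested genes, some of them shared, and 1.3% of all genes tested did not overlap. Of 42 transcription factors of early B cells 29 were positive, with a median of 0.16. At an unadjusted p under 0.05, 2 were higher and 0 lower (1.8% and 1.06% of all genes tested were). They were Nfil3, a basic leucine zipper repressor, with 60.9, 52.7, 26.9, 119.8 and 47.7 normalized counts in tet-LIN28B, against 24.8, 23.9, 21.5 and 4.60 in control, and Tcf12, an E protein. Pax5 and Ebf1, which commit and maintain the B lineage, overlapped widely, with Ebf1 at 7285 to 18427 in tet-LIN28B and 4195 to 17442 in control. Genes of the pre-B cell receptor and its signalling were positive in 23 of 28, with a median of 0.13, and 0 were at an unadjusted p under 0.05 in either direction. Control replicate 4 had the lowest centred median of that list, at -0.622 (log2), and without it the median was -0.02. Ptpn6, a phosphatase that dampens receptor signalling and that both this list and the IL-7 list hold, had 6215, 6134, 4594, 4673 and 6364 normalized counts in tet-LIN28B, against 6680, 7127, 7399 and 6940 in control (log2 fold change -0.34 ± 0.18 SE, limma adjusted p = 0.999). Rag1, one of the recombinase subunits, had 673, 580, 718, 196 and 370.0 in tet-LIN28B, against 351, 434, 104 and 55.2 in control. The libraries overlapped (log2 fold change 1.41 ± 0.61 SE, limma adjusted p = 0.999), and Rag2, the other subunit, had a log2 fold change of 0.45. Il7r, the receptor chain for IL-7, the main growth factor of these cells, had 2711, 2805, 3544, 2123 and 3285 in tet-LIN28B, against 4062, 2871, 2858 and 1676 in control, a log2 fold change of 0.06 (95% confidence interval -0.51 to 0.63). Of 30 genes of IL-7 and STAT5 signalling, 0 were higher and 3 lower at an unadjusted p under 0.05 (1.8% and 1.06% of all genes tested were). The 3 were Socs2, Ccnd2 and Pim3. The list's median was 0.05, positive in 13 of 24 alternative settings.

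Ribosomal genes, which include transcripts bound by LIN28B, did not pass the test at this stage. Of 79 cytosolic ribosomal proteins 25 were positive, the median log2 fold change was -0.06, and members ranged between -0.36 and 0.27, with 0 at an unadjusted p under 0.05. The median kept its sign in 17 of 24 alternative settings and was 0.07 in the libraries with reads of Y-linked genes alone. Rpl23, a large subunit protein, had 339, 378, 1064, 723 and 740.0 normalized counts in tet-LIN28B, against 437, 865, 742 and 1101 in control. Rps9, a small subunit protein, had 4343, 5204, 6527, 8975 and 6560 in tet-LIN28B, against 4562, 7395, 8049 and 9833 in control. Both overlapped, with 95% confidence intervals of the log2 fold change of -1.17 to 0.51 for Rpl23 and -0.81 to 0.35 for Rps9. A list of transcripts bound by LIN28B was taken from the supplement of the paper, by gene name only. Of its 238 genes 232 were tested, 111 were positive and the median was -0.01, with the same sign in 13 of 24 alternative settings. The single member at an unadjusted p under 0.05 was Hnrnph3, a splicing factor, with 1759, 2162, 1609, 2297 and 1725 in tet-LIN28B, against 1595, 1272, 1341 and 1155 in control. The 19 ribosomal proteins among the bound transcripts had a median of -0.03.

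Within single libraries the ribosomal protein list varied more than between genotypes. Its centred median was -0.568, -0.317, 0.492, 0.0639 and 0.170 (log2) in tet-LIN28B, against -0.446, 0.232, 0.0477 and 0.320 in control. The 3 lowest libraries were the 3 without reads of Y-linked genes, tet-LIN28B replicates 1 and 2 and control replicate 1. Heat shock genes followed the same division, at -0.897, -0.806, 0.482, 0.0840 and 0.714 in tet-LIN28B, against -0.627, 0.276, 0.345 and 0.437 in control. The part of the sex of the mouse, or of anything shared by those libraries, in these values was not tested.

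MYC and growth genes did not pass the test at this stage. Myc, the transcription factor of growth and ribosome synthesis, had 4250, 4712, 3395, 5082 and 4178 normalized counts in tet-LIN28B, against 3853, 4163, 6395 and 8177 in control. The tet-LIN28B libraries lay within or near the control range, and control replicates 3 and 4 were the highest of all. The log2 fold change was -0.33 ± 0.25 (SE, 95% confidence interval -0.87 to 0.21, limma adjusted p = 0.999, exact permutation p = 0.246). Of 193 MYC target genes 73 were positive, with a median of -0.06 (negative in 19 of 24 alternative settings) and 0 at an unadjusted p under 0.05 in either direction. Translation factors were positive in 19 of 50 (median -0.07), ribosome biogenesis genes in 22 of 78 (-0.10), ATF4 and amino acid genes in 8 of 32 (-0.12), heat shock genes in 2 of 17 (-0.16) and oxidative phosphorylation genes in 25 of 76 (-0.06). Replication genes were positive in 41 of 57 (median 0.11) and mitosis genes in 23 of 61 (-0.04). Of these medians, those of oxidative phosphorylation, mitosis and heat shock genes kept their sign in 19, 21 and 22 of the 24 alternative settings, and those of translation, ribosome biogenesis, ATF4 and replication genes in all 24.

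**Figure D4:**
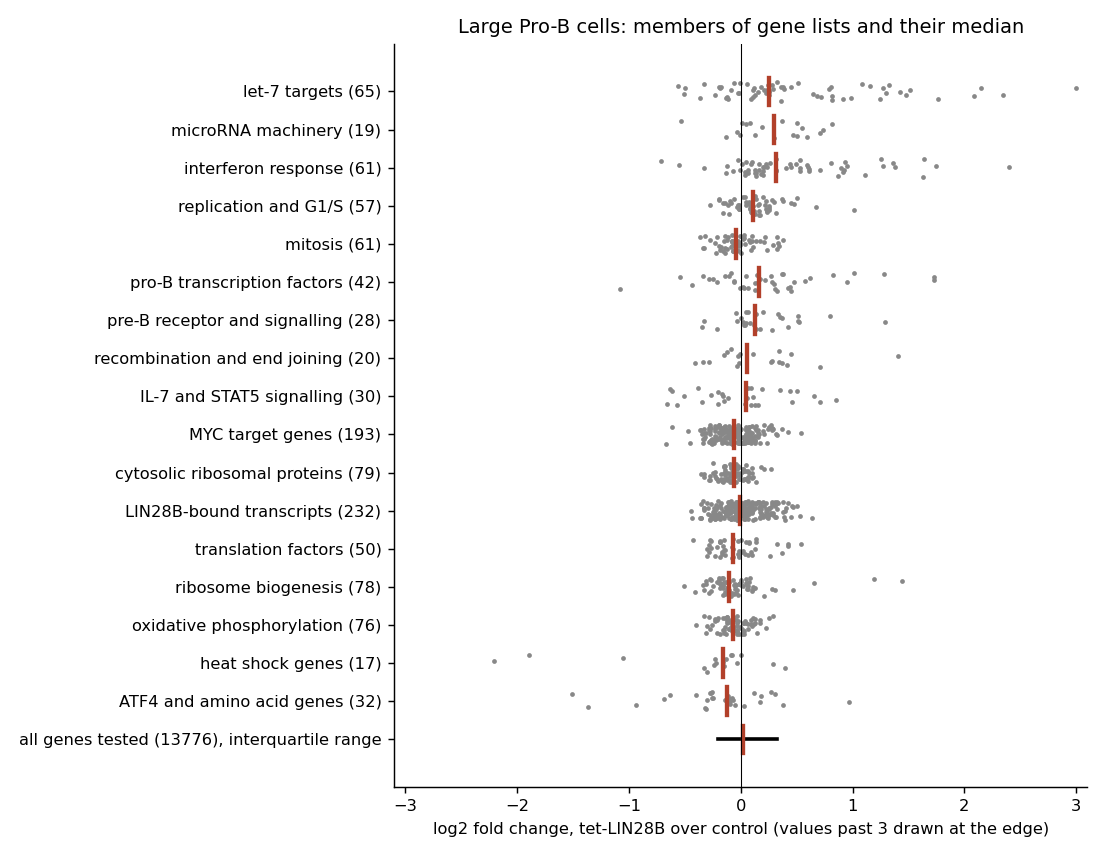
Log2 fold change, tet-LIN28B over control (x axis), of the tested members of 17 gene lists (grey points, number of members in parentheses) with the median of each list (bar). The bottom row gives the median and the interquartile range of all 13776 genes tested. The medians of the let-7, microRNA machinery and interferon lists lie between 0.26 and 0.31, and those of ribosomal, MYC and translation lists between -0.10 and -0.06, of which the ribosomal protein and MYC target medians changed sign under some alternative settings.

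Interferon response genes had mostly positive values. Of 61 tested, 53 had a positive log2 fold change (52.2% of all genes tested did), and the median was 0.31. Only Oas2, the double-stranded RNA sensor, was at an unadjusted p under 0.05 (2.86% of all genes tested were). It had 145, 61.8, 47.9, 123 and 48.9 normalized counts in tet-LIN28B, against 18.1, 27.8, 11.5 and 54.0 in control (log2 fold change 1.64 ± 0.58 SE, limma adjusted p = 0.999). The centred median of the list was 0.591, 0.651, 0.0776, 0.114 and -0.240 (log2) in tet-LIN28B, against 0.156, 0.0710, -0.0589 and -0.604 in control. The list was thus highest in tet-LIN28B replicates 1 and 2 and lowest in control replicate 4, and the genotypes overlapped. Its median log2 fold change was positive in all 24 alternative settings and ranged between 0.18 and 0.44 when 1 library was left out. It was 0.05 in the libraries with reads of Y-linked genes alone, which leave out tet-LIN28B replicates 1 and 2 and control replicate 1.

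Whether the genotype effect in large Pro-B cells differs from that at the later stages was tested in 1 limma fit over the 6 groups of the series, on 11830 genes. Against large Pre-B cells, the dividing cells of the next stage, 0 genes (0%) differed at an adjusted p under 0.05 (521 at an unadjusted p under 0.05). Against small Pre-B cells, the resting stage after that, the effect was higher in large Pro-B cells for 1 gene (0.00845%) and lower for 3 (0.0254%). The lower genes were Myc, A630023P12Rik and Id3. The effect on Myc was -0.33 in large Pro-B and 3.03 in small Pre-B cells, a difference of -3.36 ± 0.37 (SE, limma adjusted p = 1.18e-04). Id3, an inhibitor of E proteins, had a log2 fold change of 0.03 in large Pro-B and 1.57 in small Pre-B cells, a difference of -1.55 (limma adjusted p = 0.0325). In large Pro-B cells Id3 had 4403, 4516, 2661, 4316 and 3323 normalized counts in tet-LIN28B, against 4744, 3477, 4169 and 2704 in control, over largely the same range.

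The unnamed transcript A630023P12Rik had 326, 436, 390.3, 539.7 and 191 normalized counts in tet-LIN28B large Pro-B cells, against 127, 166, 55.4 and 126 in control. It did not overlap there either, with a log2 fold change of 1.68, against 6.37 in small Pre-B cells (difference -4.69, limma adjusted p = 0.00949). Small Pre-B cells had 89.4, 171 and 138 in tet-LIN28B, against 2.79, 0 and 0 in control, so that the value of 6.37 depends on the pseudocount. With a pseudocount of 5 the difference was -2.88 and did not pass (limma adjusted p = 0.0809). Dgkh, diacylglycerol kinase eta, ran in opposite directions, with log2 fold changes of 2.59 in large Pro-B and -2.35 in small Pre-B cells (difference 4.94, limma adjusted p = 0.0398). It was low in large Pro-B cells, at 39.8, 31.3, 38.4, 25.6 and 27.6 in tet-LIN28B, against 2.26, 1.54, 4.61 and 18.4 in control. Cd36, Igf2bp3 and Hmga1 were higher in tet-LIN28B at all 3 stages in this fit, at 2.16, 2.92 and 3.65 for Cd36, 1.48, 1.33 and 1.88 for Igf2bp3 and 0.65, 0.89 and 0.89 for Hmga1 in order of development, and none of these stage differences passed. Arl5a, an ARF-like GTPase, had a log2 fold change of 0.11 in large Pro-B cells, against -1.53 in large Pre-B cells, but the difference of 1.64 did not pass (limma adjusted p = 0.184).

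**Figure D5:**
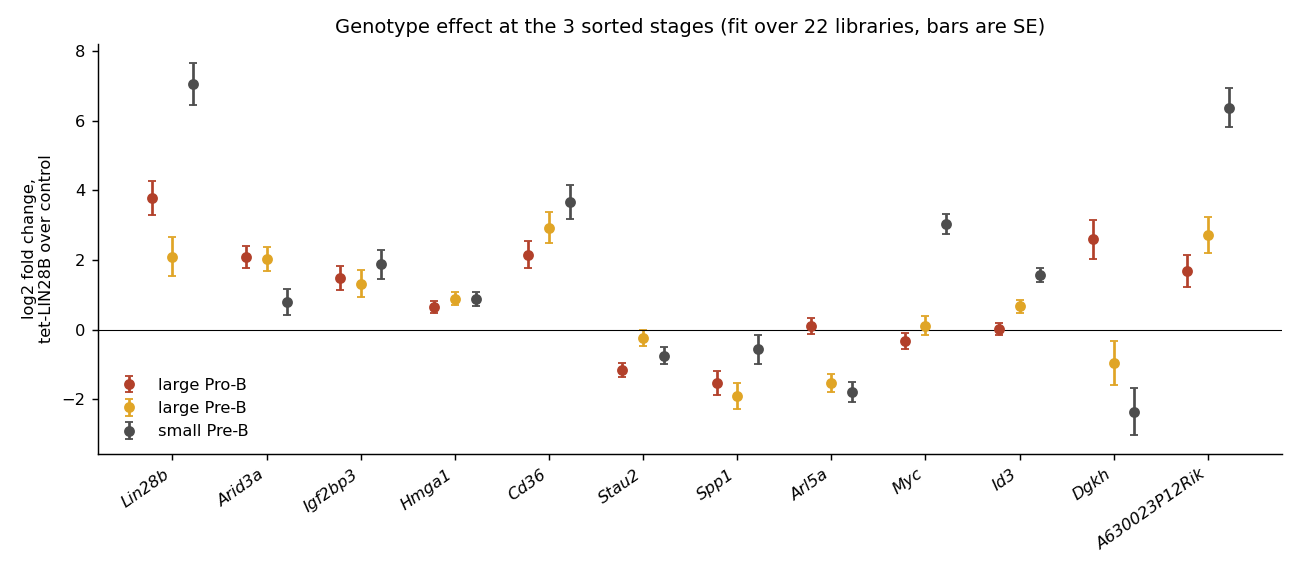
Log2 fold change, tet-LIN28B over control (y axis), of 12 genes at the 3 stages, from large Pro-B over large Pre-B to small Pre-B, from 1 limma fit over 22 libraries. Points are estimates and bars are SE. Of the genes drawn, Myc, Id3, A630023P12Rik and Dgkh differ between large Pro-B and small Pre-B cells at an adjusted p under 0.05, while Cd36, Igf2bp3 and Hmga1 lie above 0 at every stage.

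Genes with a let-7 seed match had a median log2 fold change of 0.10 in large Pro-B cells in that fit, against -0.02 for genes without one (1116 and 9343 genes). In large Pre-B cells the medians were 0.16 with and 0.04 without a match, and in small Pre-B cells 0.02 with and 0.00 without. The gap was thus 0.122 in large Pro-B, 0.121 in large Pre-B and 0.0209 in small Pre-B cells. Large Pro-B and large Pre-B libraries share 7 mice, whereas the small Pre-B libraries come from others, and the difference of the gaps was not tested.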

How the data were processed

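RNA was measured in 9 large Pro-B libraries, each from a separate mouse per the labels (5 tet-LIN28B, 4 control). Per the submitters' processing notes, reads were aligned to mm10 with STAR 2.7.1, quantified with RSEM 1.28 and scaled with DESeq2. The signal values deposited by the authors are read counts per gene divided by 1 size factor per library. The gene annotation behind the counts is not named in any source read for this work. Each stage had its own table, normalized separately. Further tables of the authors' own comparisons, with base means, log2 fold changes, SEs, Wald statistics and p-values, were not used. The values were whole multiples of 1 read within 0.1 read for 100% of entries, so that whole reads could be recovered (13.9 to 23.3 M per library). Precision at this depth is set by the spread between mice, and a count of 0 allows up to 3 reads, which covers counting error alone. R had altered 3493 gene symbols, of which 3125 were restored.

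Genes at 10 or more in 4 or more libraries were tested with limma 3.58.1 (R 4.3.3) with trend on log2(normalized count + 1), two-sided, genotype as the only term, with Benjamini-Hochberg adjustment and a threshold of 0.05. Fold changes are on that scale. The added 1 pulls those of low genes toward 0. Libraries near 0 can also make them larger than by DESeq2, as for Itgam at 2.72 by limma and 1.37 by DESeq2. Single genes had an exact two-sided permutation test of the 9 libraries. edgeR 4.0.16 and DESeq2 1.42.0 on the recovered reads, other filters, pseudocounts and scalings, array weights, a replicate block and leaving out libraries were alternatives. Stages were compared in 1 limma fit over all 22 libraries of 15 mice, on 11830 genes, in which libraries of 1 mouse shared a random effect (correlation 0.278). The procedure was tested on simulated data with the spread estimated from these libraries. Limma called 9 of 100 genes with a true log2 fold change of 1 in size and 71 of 100 with one of 2. It called 1 of 13576 genes without a change. A gene that did not pass is thus not shown to be unchanged. Seed matches were counted in the longest 3′ UTR of GENCODE M21, and gene positions came from RefSeq (GRCm38.p6), with Python 3.11.15.

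Members, lists and tests were chosen with earlier results of these data known. Genes were named by rule, as members of a panel, as called genes (up to 20), as the 10 genes in each direction with the smallest p among those whose libraries did not overlap and whose mean reached 50 in 1 genotype (predicted genes and receptor segments left out), as the 2 members of each list with the smallest p, as the 5 genes with the smallest p per stage difference, and as sex-linked genes. Fndc3a, Mdm4, Galc, Plagl2, Slc5a6, Tut4 and Pim3 were named after their values were seen.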

Additional observations from a re-analysis of the deposited data

Results flagged for a closer look

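Within a genotype, 6 values stood apart from the other libraries by the gap of the extreme library relative to the range, among 116 groups of values examined, where chance gives about 1 in 20. Cd36 had 593 normalized counts in control replicate 1, against 130 to 169 in the other controls. Rgs3, a regulator of G protein signalling, had 318 in control replicate 4, below the other controls at 449 to 478 and above every tet-LIN28B library at 173 to 260. Slc46a3, a lysosomal transporter, had 61.8 in tet-LIN28B replicate 2, against 32.9 to 37.4 in the other tet-LIN28B libraries. Nfil3 had 4.60 in control replicate 4, against 21.5 to 24.8 in the other controls. Utp20, a component of the machinery that processes ribosomal RNA, had 417 in tet-LIN28B replicate 4 and 107 in control replicate 4, against 815 to 969 in the other tet-LIN28B libraries and 431 to 508 in the other controls. Control replicate 4 gave 3 of the 6 values.

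The genotype effect differed between large Pro-B and small Pre-B cells for 4 genes in the limma fit over all stages, with differences of -3.36 for Myc, -4.69 for A630023P12Rik, -1.55 for Id3 and 4.94 for Dgkh.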

How the results depend on the processing

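The count of 0 genes called by limma became 4 with DESeq2 (all 4 higher), 2 with array weights (Lin28b and Arid3a, both higher) and 3 in the 6-group fit (2 higher and 1 lower). Leaving out 1 library gave 0 to 1 genes called, and 0 to 1 higher, the 1 being Cd36 without control replicate 1. The Il7r difference of 0.06 changed sign with edgeR (-0.018) and without tet-LIN28B replicates 3 and 5 and control replicate 4 (-0.35), and ranged between -0.18 and 0.25 when 1 library was left out. The let-7 site difference of 0.14 was 0.0615 without those 3 libraries and 0.107 to 0.202 when 1 library was left out. Those 3 libraries, the libraries with Y-linked reads and the site difference were chosen after seeing the data. Rag2 stood at -0.0033 without them, against 0.45. Of 136 named genes tested, 102 kept their sign under every setting that tested them, and 34 did not, of which 30 were within 1 SE of 0, such as Igf2bp1, Pax5, Ebf1 and Id3. Lin28b, Arid3a, Stau2, Per3, Sfmbt2 and Cd36 passed under the settings given with them, and no other gene did. Large Pro-B and small Pre-B effects differed for 4 genes, 3 with a pseudocount of 5, where A630023P12Rik was lost at -2.88, and 5 without the mouse block. Against large Pre-B cells the count was 0 in each of these fits. With the replicate block limma called 0 genes (731 of 13005 at an unadjusted p under 0.05). Same-numbered libraries correlated at 0.43, 0.142, -0.188 and 0.274 in their deviations, so that the numbers were not taken to pair mice. The median of all genes lay between -0.02 and 0.06 under every setting run. The spread between mice of 1 genotype limits which differences can pass, and genes near the filter of 10 rest on few reads. The cause of these changes was not tested.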

Other observations

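The AP-1 and immediate early genes, which cells switch on within minutes of a stimulus or of tissue handling, were positive in 10 of 26, with a median log2 fold change of -0.21 and a negative median in all 24 alternative settings. Jun, an AP-1 subunit, had 6459, 16913, 7433, 3939 and 8792 normalized counts in tet-LIN28B, against 12914, 17039, 13577 and 18056 in control. Every tet-LIN28B library but replicate 2 was below the lowest control, and the log2 fold change was -0.97 ± 0.34 (SE, limma adjusted p = 0.999). Gadd45b, on the same list, ran the other way, with 236, 266, 245, 167 and 174 in tet-LIN28B, against 131, 107, 93.8 and 70.1 in control. Neither gene passed the test.

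Other programmes had medians between -0.02 and 0.25, against 0.02 over all genes tested. Genes of recombination and end joining were positive in 10 of 20 (median 0.05), light chain and late Pre-B genes in 22 of 34 (0.12), lipid genes in 17 of 30 (0.04) and homing and adhesion genes in 16 of 28 (0.05). Early progenitor genes were positive in 10 of 22 with a median of -0.02, which was positive in most alternative settings. Members of the BCL2 family, which set the threshold for apoptosis, were positive in 7 of 13 with a median of 0.25, but the median was -0.13 without tet-LIN28B replicate 4. None of these genes other than Cd36 passed under any setting.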
